A study of Arabidopsis thaliana with 12 samples.

Results

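Rosette leaves of Arabidopsis exposed to a low concentration of formaldehyde were compared with leaves kept in clean chamber air. The comparison holds 6 of the 12 plants of the study, chosen by their titles: 3 low plants at 1 to 2 ppm formaldehyde and 3 air plants under 0.04 ppm, each measured on its own Affymetrix ATH1 array. All plants were of the Columbia ecotype, were 7 weeks old and carried rmpA and rmpB, bacterial genes for chloroplast-targeted enzymes that fix formaldehyde into sugar phosphates. Both groups therefore share these genes, and plants lacking them were not analysed here. Nothing in the sources used here names the promoter of the genes or says how many independent lines were grown. After 72 h of acclimation in constant light at 24 °C, the plants stood for 150 min in a ventilated 10 L chamber. The other 6 plants serve below as a reference only: 3 outside plants, which were not in the chamber (under 0.08 ppm), and 3 high plants in the chamber at 14 to 16 ppm. Each chamber treatment was a single run with 3 plants inside, so effects of the run and of the treatment cannot be told apart, and every p-value measures the spread between plants.

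Jasmonate is a lipid-derived hormone that leaves make within minutes of wounding, and MYC transcription factors carry its signal once JAZ repressors are removed. Leaf cells also respond to fragments of microbes or of their own walls through surface receptors, whose kinases switch on WRKY and zinc finger transcription factors, while plant U-box ubiquitin ligases damp the response. Sugar supply has its own readout: when carbon is short, the kinase SnRK1 raises a set of starvation genes, and SWEET carriers move sugars across membranes.

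The values are log2 intensities. Of 22746 probe sets tested, 283 (1.24%) were called at an adjusted p under 0.05 by limma, 172 higher (0.756%) and 111 lower (0.488%) in the low plants. Of these, 129 of the higher and 51 of the lower ones changed at least 2-fold. The table of probes paired 157 of the called probe sets with 1 gene, and 23 of those genes have a symbol. Without any test, all 3 low plants lay above all 3 air plants for 1995 probe sets (8.77%) and below them for 2417 (10.6%). All 283 called probe sets were among these. The gap between the nearest plants of the 2 groups was mostly small, with a median of 0.14 for the higher and 0.12 for the lower ones. It reached 1 on the log2 scale for 116 higher and 28 lower probe sets. With a log2 change of at least 1 required as well, 555 higher (2.44%) and 386 lower (1.7%) probe sets had no overlap. With 3 plants against 3, an exact two-sided permutation test cannot give a p below 0.10.

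**Figure D1:**
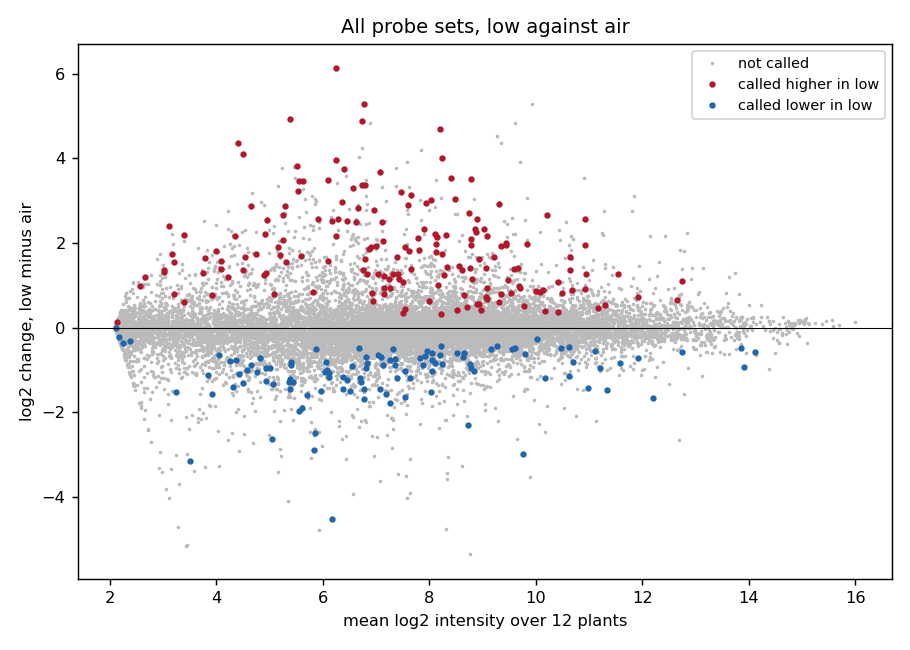
Log2 change between the low and air plants (vertical axis) against the mean log2 intensity over 12 plants (horizontal axis) for each of 22746 probe sets. Red points are the 172 called higher and blue points the 111 called lower; the highest point is ORA47 at 6.13.

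The air plants did not form a tight group, and this touches most results below. Air plant 1 differed at least 2-fold from air plants 2 and 3 at 1414 and 1576 probe sets. From low plants 1, 2 and 3 it differed at 424, 871 and 1121, while pairs of low plants differed at 219 to 440. Without air plant 1 the calls numbered 1111 higher and 1139 lower (9.89% in all). With air plant 1 as the lone control they numbered 43 and 117. Signs of RNA quality, the 3′ minus 5′ signals of control genes, overlapped between both groups for GAPDH (-0.04 to 0.15 in air, -0.13 to 0.01 in low), ubiquitin (-0.42 to -0.30 and -0.34 to -0.27) and actin (0.54 to 0.82 and 0.70 to 0.94). The leaf mesophyll genes LHCB4.1, LHCB4.2 and RCA read between 14.63 and 15.15 in all 6 plants. The root gene PYK10 was at the lowest value, 2.11, in 5 plants and at 6.17 in air plant 3. In whole leaves, fewer cells of a type and less RNA per cell cannot be told apart.

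Jasmonate genes were called in both directions. ORA47, an ERF-type transcription factor that switches on jasmonate synthesis genes, rose, and MYC3, a transcription factor that carries the jasmonate signal, fell. ORA47 read 4.24, 4.24 and 5.88 in air plants 1, 2 and 3 and 10.33, 11.15 and 11.27 in low plants 1, 2 and 3. No other probe set had as wide a gap between the groups, 4.45 on the log2 scale, and the change was 6.13 ± 0.46 (SE, adjusted p = 6.11e-04). It was called in each of the 6 fits that left out a low or air plant, with changes of 5.85 to 6.67, but not when the 6 arrays were fitted alone (adjusted p = 0.103). The outside plants (4.84 to 5.14) and the high plants (3.82 to 4.62) stayed near the air plants, so ORA47 was high in the low plants alone among these 4 groups.

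MYC3 read 7.85, 8.13 and 8.65 in the air plants and 6.90, 6.40 and 6.00 in the low plants, a change of -1.78 ± 0.29 (SE, adjusted p = 0.0304). All low plants also lay below the outside plants (7.20 to 7.77), but against those, where 7.8% of probe sets were called, the change was -0.99 (adjusted p = 0.0774). The call was lost without air plant 2 (adjusted p = 0.0892), air plant 3 (0.102), low plant 2 (0.114) or low plant 3 (0.107). MYC4, its close relative, had 8.50, 9.73 and 9.90 in the air plants and 8.34, 7.47 and 7.85 in the low plants. These did not overlap, yet the gap was 0.16 and the change of -1.49 did not pass (adjusted p = 0.0989).

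The few measured genes that make, modify or break down jasmonate were not called, and most of the listed synthesis genes were not measured. Of 33 listed, 6 were measured, 0 were called and 0 had no overlap, against 1.24% called over all probe sets, and 3 lay near the lowest value throughout. OPCL1, which activates a jasmonate precursor for shortening in the peroxisome, had 9.03, 9.61 and 10.29 in air and 9.41, 9.43 and 9.47 in low plants, a change of -0.21 (adjusted p = 0.934). AT5G05600 and AT2G38240 from this list read 8.93 and 7.55 in air plant 3 and between 2.93 and 6.32 in the other 5 plants. Air plant 3 was thus the high one for both, and their changes of -1.66 and -1.84 did not pass (adjusted p = 0.383 and 0.297). The same plant carried the thionin THI2.1, an antimicrobial peptide induced by jasmonate, at 7.57, where the low plants read 2.11 to 2.12. The defensin PDF1.2, a target of jasmonate with ethylene, had a change of -0.24 with overlapping plants. Of the 35 genes of jasmonate signalling and response, 5 were measured. Of these, 1 was called higher and 1 lower, beside 0.756% and 0.488% over all probe sets. Their median log2 change of -1.49 was that of MYC4, which was not called, where the median over all probe sets was 0. THI2.1, with the largest fall (-2.15), did not pass (adjusted p = 0.385), and its air plants read 2.11, 3.10 and 7.57. The JAZ repressors, MYC2 and the lipoxygenase and allene oxide genes were not among the genes paired with a probe set and were not analysed here.

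Of 35 listed genes of early wounding and rapid stress 4 were measured, 3 were called higher (0.756% over all probe sets) and 0 lower, with a median log2 change of 2.80. STZ, a zinc finger repressor also called ZAT10, read 6.74, 5.69 and 7.91 in air and 10.18, 10.22 and 10.57 in low plants. The groups lay 2.27 apart and the change was 3.54 ± 0.54 (SE, adjusted p = 0.0249). The outside plants were lower still (2.70 to 4.03) and the high plants higher (12.75 to 13.16). The STZ call was lost without air plant 2 (adjusted p = 0.0511), low plant 2 (0.0940) or low plant 3 (0.101).

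WRKY53, a transcription factor of defence and leaf ageing, read 7.62, 6.79 and 6.19 in air and 9.59, 9.36 and 10.37 in low plants. It rose by 2.90 ± 0.41 (SE, adjusted p = 0.0175), and all low plants lay above the high plants (8.97 to 9.20) as well as the outside plants (4.30 to 5.24). This call was lost without air plant 2 (adjusted p = 0.0672), air plant 3 (0.0511) or low plant 3 (0.0603). AR781, known here by its symbol alone, had 7.33, 7.00 and 7.47 in air and 9.70, 10.05 and 10.16 in low plants. Its change of 2.70 ± 0.16 (SE, adjusted p = 3.50e-04) was nearly the same in the high plants (2.79 against air) and was called in each of the 6 fits that left out a plant. The fourth gene measured, EXO, a cell wall protein of growth control, overlapped because air plant 1 read 10.33 and the low plants 8.97 to 10.20, and did not pass (1.37, adjusted p = 0.46).

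In pattern-triggered defence, 3 of 7 measured genes (52 listed) were called higher, beside 0.756% over all probe sets, and 0 lower. All low plants lay above the air plants for 4 of the 7, beside 8.77%, and the median log2 change was 1.25. PUB22, a U-box ligase that damps receptor signalling, read 4.17, 3.94 and 2.99 in air and 6.08, 6.63 and 7.03 in low plants. Its rise of 2.88 ± 0.32 (SE, adjusted p = 0.00637) was called whichever plant was left out. WRKY22, a transcription factor downstream of the flagellin receptor, read 5.29, 3.49 and 3.00 in air and 7.16, 7.32 and 7.69 in low plants. Its change was 3.46 ± 0.58 (SE, adjusted p = 0.0324). Air plant 1 lay nearest the low plants, and the call held without air plant 1 but was lost without any of the other 5 plants (adjusted p = 0.0597 to 0.12).

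BIK1, the kinase that passes the signal on from surface receptors, had 6.92, 7.27 and 7.61 in air and 8.32, 8.45 and 8.79 in low plants. The groups lay 0.72 apart and BIK1 rose by 1.26 ± 0.18 (SE, adjusted p = 0.0229), a call lost without air plant 2 (0.0763), low plant 2 (0.0787) or low plant 3 (0.0759). WRKY6, a transcription factor of ageing and defence, was separated by a similar gap of 0.74 (4.94, 5.09 and 5.27 against 6.01, 6.19 and 6.86). Its change of 1.25 ± 0.31 did not pass (adjusted p = 0.0909). The U-box ligases PUB23 (0.95) and PUB24 (0.41), close relatives of PUB22, overlapped and were not called, and the receptor gene EFR had 0.04, at 2.11 to 2.58 in all 6 plants.

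**Figure D2:**
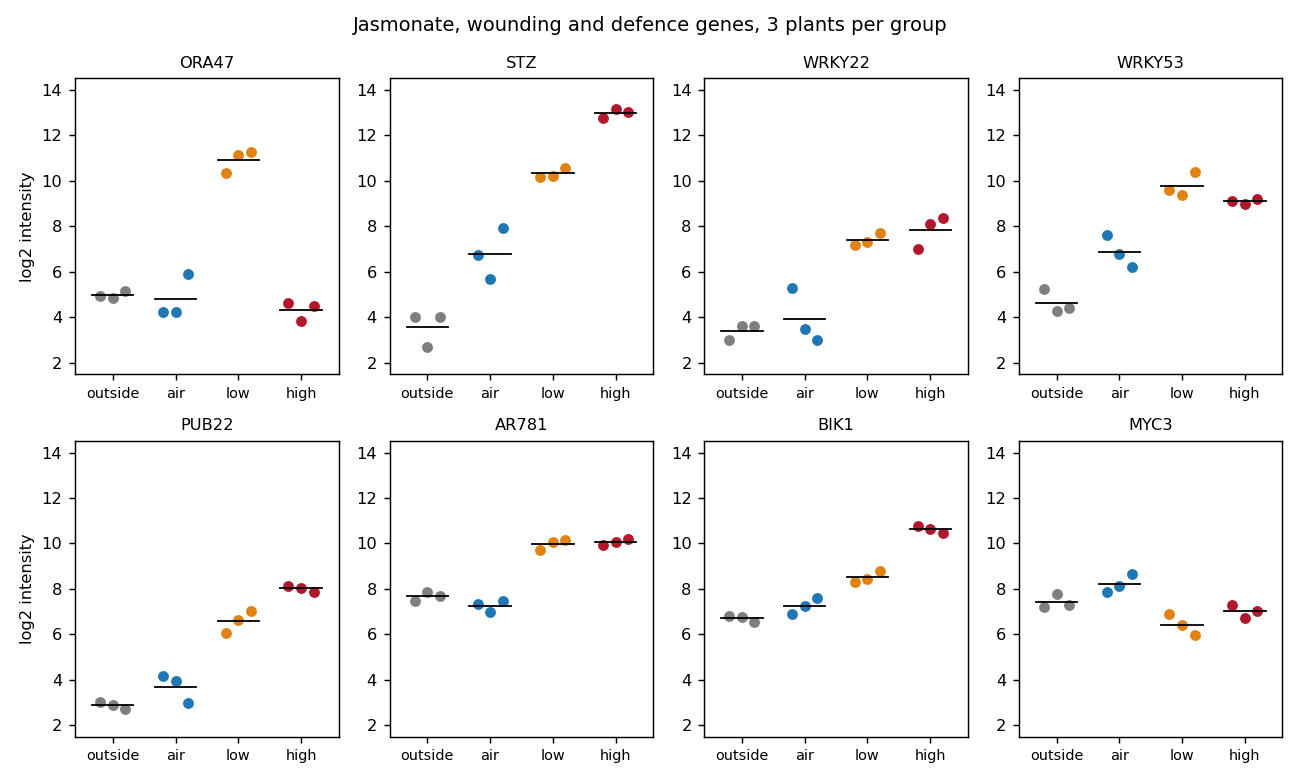
Log2 intensity (vertical axis) of 8 jasmonate, wounding and defence genes in each plant (points) of the outside, air, low and high groups (horizontal axis), with the group mean as a line. ORA47 is high in the low plants alone, from 10.33 to 11.27, MYC3 lies below the air plants there, from 6.00 to 6.90, and in the low plants the other 6 genes lie above the air and outside plants.

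Salicylate, touch and ethylene genes were not called, where 1.24% of all probe sets were. The salicylate list had 2 measured genes of 28, the glutaredoxin GRX480 (-0.17) and the lipase-like immune protein SAG101 (-0.63), both with overlapping plants. In the touch and calcium list 6 of 19 were measured. The calmodulin-like CML38 had no overlap by a gap of 0.08, reading 5.32, 4.48 and 5.80 in air and 7.16, 6.31 and 5.88 in low plants (1.25, adjusted p = 0.151). Its relative CML37 stayed between 2.11 and 2.14 in all 6 plants. EIN3, the ethylene transcription factor and the single measured member of 15, had -0.08.

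Over the wounding, pattern, salicylate and touch lists together, 19 of 134 genes were measured. Of these, 6 were called higher (0.756% over all probe sets) and 0 lower (0.488%), and 8 lay above the air plants without overlap (8.77%). The gaps ran from 0.08 to 2.27. These lists were chosen with earlier results of these data known, among them STZ, WRKY22 and WRKY53. Their counts here and above are descriptive and no test of the lists. Gene families were counted by symbol as well, beside the same shares. Only 1580 of 13513 probe sets with 1 gene have a symbol other than a locus, so the families are incomplete. Of 6 genes with a WRKY symbol 2 were called higher, WRKY22 and WRKY53, 3 lay above the air plants without overlap and 1 below, WRKY47 (-0.34, adjusted p = 0.462). Of 9 U-box ligase genes 1 was called higher, PUB22, 3 lay above without overlap and 1 below, PUB49 (-0.39, adjusted p = 0.148), where 10.6% of all probe sets lay below. Of 7 calmodulin-like, 4 ATL ring finger and 9 xyloglucan enzyme genes 0 were called by limma.

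Ranked by size, the largest rises outside the lists were in genes known here only by locus. AT3G10930 read 2.92, 2.11 and 2.11 in air and 6.90, 7.50 and 7.55 in low plants, at least 30.7-fold higher (adjusted p = 2.83e-04). Its gap of 3.99 was the next widest after ORA47. AT2G22880 stood at 2.13 in every air plant and at 5.84, 6.31 and 7.31 in the low plants, at least 20.5-fold higher (adjusted p = 6.11e-04). The other rises of this rank were AT1G76600 (3.52), AT1G02660 (3.37), AT1G66090 (3.297), AT2G32030 (3.22), ZCF37 (3.02), AT4G29780 (2.97), AT1G05575 (2.95), AT3G48650 (at least 7.33-fold) and AT1G25400 (2.77). AT1G25400, at 5.82, 5.72 and 5.63 in air and 8.31, 8.59 and 8.60 in low plants, was the only one of the 16 ranked rises still called when the 6 arrays were fitted alone (adjusted p = 0.0162). AT1G02660 was lost without any plant but air plant 1 (adjusted p = 0.0804 to 0.147). AT1G66090 was lost without air plant 2 (0.0846), low plant 2 (0.0919) or low plant 3 (0.0839), and AT4G29780 without air plant 2 (0.0513), air plant 3 (0.0501), low plant 2 (0.0728) or low plant 3 (0.0677).

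All 16 ranked rises lay above the outside plants without overlap. Against the high plants, the low plants were higher for ORA47 and WRKY53, overlapped for AT2G22880 and WRKY22, and were lower for the other 12. AT2G32030, for example, read 5.59 to 6.31 in low and 10.66 to 11.51 in high plants. Over all called probe sets, 151 of the 172 higher ones lay above the outside plants too and 83 of the 111 lower ones below them. Over all probe sets, 4.17% and 4.74% lay beyond both groups. Every called probe set had no overlap with the air plants. Among all probe sets without such overlap, 948 of 1995 higher and 1079 of 2417 lower ones lay beyond the outside plants too. The comparisons with the air and outside plants share the low plants.

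Sugar transport had a single call among 12 measured genes, beside 1.24% over all probe sets. SWEET13, a sucrose carrier that helps load the phloem, read 6.91, 10.57 and 9.80 in air and 5.08, 4.31 and 4.37 in low plants. It fell by 4.51 ± 0.78 (SE, adjusted p = 0.0339) on the log2 scale, with a gap of 1.83 set by air plant 1. The outside plants (7.98 to 8.29) lay above the low plants and the high plants (2.83 to 3.05) below. Leaving out any plant but air plant 1 ended the call (adjusted p = 0.0585 to 0.133), and against air plant 1 alone the change was -2.32, against -5.60 for air plants 2 and 3.

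The other 11 measured carriers (29 listed) were not called. SWEET2, a sugar carrier of the vacuole membrane, read 5.001, 3.13 and 3.55 in air and 5.72, 5.68 and 5.75 in low plants. The low plants lay close together and among the outside plants (5.599 to 6.08), and the change of 1.82 did not pass (adjusted p = 0.0869). TMT1, which brings sugars into the vacuole, separated by only 0.05 (0.89, adjusted p = 0.212). SWEET11, a phloem-loading sucrose carrier, was lower without overlap by a gap of 0.09 (13.48, 13.54 and 13.50 against 13.39, 13.22 and 13.34), a change of -0.19 that did not pass (adjusted p = 0.893). The listed carrier gene AT5G61520 had -0.67 with a gap of 0.28 (adjusted p = 0.225). SWEET14 and SAG29, also named SWEET15, lay at 2.11 to 2.14 in all 6 plants, so that no fall could be seen there.

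Of 6 measured starch genes (39 listed), 0 were called by limma, beside 1.24% over all probe sets. At an unadjusted limma p under 0.05, 2 were lower and 1 higher, beside 4065 of all 22746 probe sets in either direction. APL3, a large subunit of the enzyme that makes ADP-glucose for starch, read 8.50, 10.42 and 9.67 in air and 8.43, 8.08 and 8.26 in low plants. These did not overlap by 0.07, and the change of -1.27 (adjusted p = 0.17) became 0.71 against the outside plants. The branching enzyme SBE2.2 was at -0.43 with a gap of 0.02 (adjusted p = 0.134), and DPE1, which recycles short glucans from starch breakdown, at 0.55 with a gap of 0.03 (adjusted p = 0.174). AMY1, a starch-cleaving amylase, lay near the lowest value.

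The symbol PWD is given in the reference table to 2 loci. AT4G24450, listed there as a glucan water dikinase, a kind of enzyme that phosphorylates glucan chains, is in none of the lists and was named for earlier results. It read 7.76, 8.63 and 8.65 in air and 7.20, 6.28 and 6.87 in low plants, a change of -1.57 ± 0.27 (SE, adjusted p = 0.0358) with a gap of 0.56. The call was lost without air plant 2 (adjusted p = 0.119), air plant 3 (0.135), low plant 2 (0.114) or low plant 3 (0.115), and the low plants overlapped the outside plants (7.13 to 7.24). The other locus, AT5G26570, the chloroplast enzyme of starch breakdown, read 10.67 to 10.87 in air and 10.69 to 10.76 in low plants (-0.06, adjusted p = 0.983).

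Of 8 measured sugar starvation genes (26 listed), 0 were called by limma, beside 1.24% over all probe sets. At an unadjusted limma p under 0.05, 3 were higher and 2 lower, beside 4065 of all 22746 probe sets in either direction. Above the air plants without overlap lay 3 of the 8, beside 8.77% over all probe sets. AT3G15450 read 12.81, 9.28 and 9.22 in air and 13.41, 13.68 and 13.57 in low plants (3.12 ± 0.81 SE, adjusted p = 0.101). Air plant 1 lay close to the low plants and the other 2 air plants far below, with the outside plants between (11.25 to 11.55). AKINBETA1, a regulatory subunit of SnRK1, had the same order, at 10.20, 8.54 and 8.77 in air and 10.59, 10.74 and 10.67 in low plants (1.50, adjusted p = 0.0969). MCCA, a subunit of an enzyme of leucine breakdown, was at 9.12, 8.23 and 8.37 and then at 9.65, 9.68 and 9.64 (1.09, adjusted p = 0.064). For all 3 genes the low plants lay above the outside plants too. PPDK, which links pyruvate to sugar making, went the other way (-1.44, adjusted p = 0.133) with overlapping plants. MCCB, the partner subunit of MCCA, had 0.02.

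**Figure D3:**
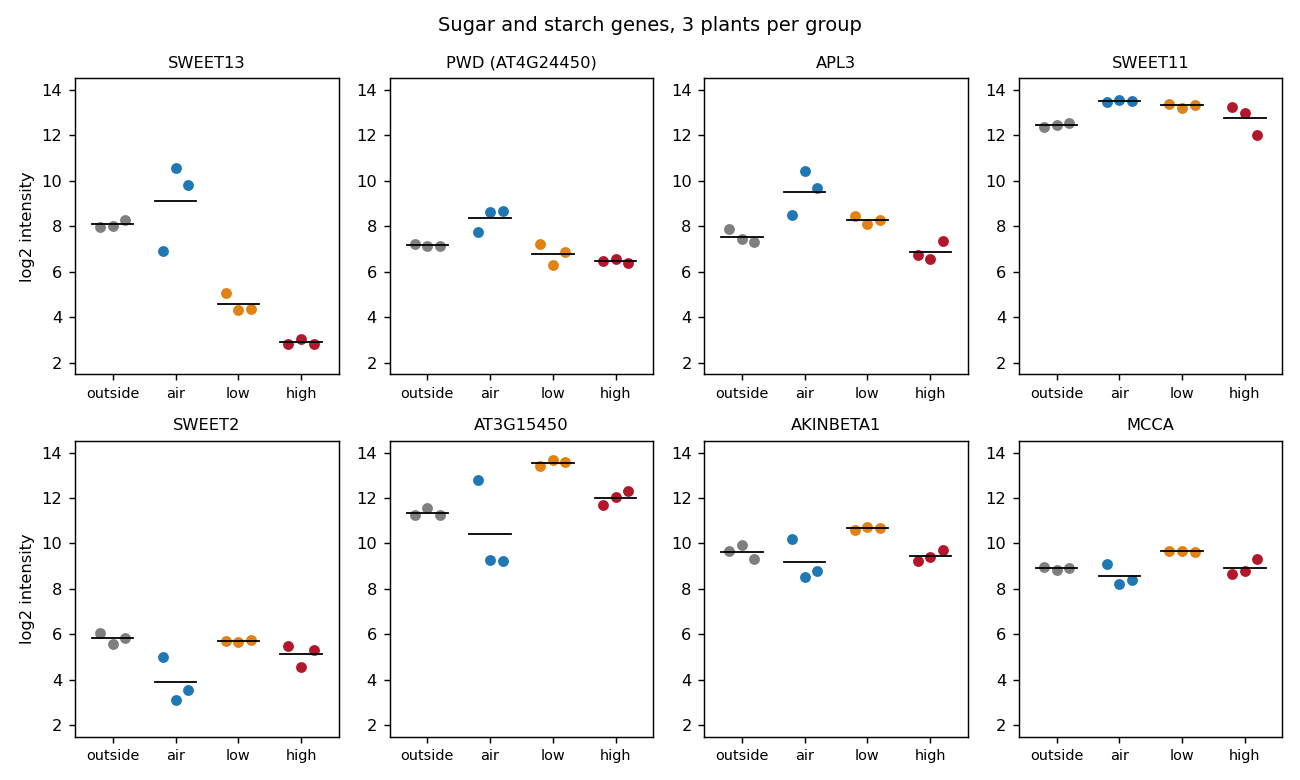
Log2 intensity (vertical axis) of 8 sugar and starch genes in each plant (points) of the outside, air, low and high groups (horizontal axis), with the group mean as a line. Air plant 1, the leftmost air point, lies nearer to the low plants than the other air plants do for all 8 genes, though by little for SWEET11.

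Among 3 measured genes of sucrose and trehalose metabolism (32 listed), 0 were called, beside 1.24% over all probe sets. Without overlap were 0, beside 8.77% higher and 10.6% lower over all probe sets. ATSPS4F, a sucrose phosphate synthase, read 9.51, 11.36 and 10.99 in air and 9.84, 8.76 and 9.25 in low plants (-1.34, adjusted p = 0.205), overlapping through air plant 1. The listed invertase gene AT1G62660 had -1.31 (adjusted p = 0.307). In the anthocyanin and flavonoid list, DFR, an enzyme of anthocyanin synthesis, was at 2.11 in air plant 1 and all low plants and at 8.50 and 7.76 in air plants 2 and 3. All outside and high plants read 2.11 as well, so that air plants 2 and 3 alone were high. UF3GT of this list had the same pattern. AT5MAT of the same list lay near the lowest value in all 6 plants, at 2.11 to 2.39. Of 6 measured pigment genes (19 listed), 0 were called, beside 1.24% over all probe sets. At an unadjusted limma p under 0.05, 4 were lower, beside 4065 of all 22746 probe sets in either direction. AT4G14090 alone had no overlap, by 0.01.

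Over the 4 sugar and starch lists, 29 of 126 genes were measured. Of these, 0 were called higher (0.756% over all probe sets) and 1 lower (0.488%). There were 6 without overlap in each direction, beside 8.77% and 10.6% over all probe sets. An unadjusted limma p under 0.05 was found for 13 of the 29, beside 4065 of all 22746 probe sets. Apart from SWEET13, the gaps were at most 0.68. The median log2 change was -0.04.

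**Figure D4:**
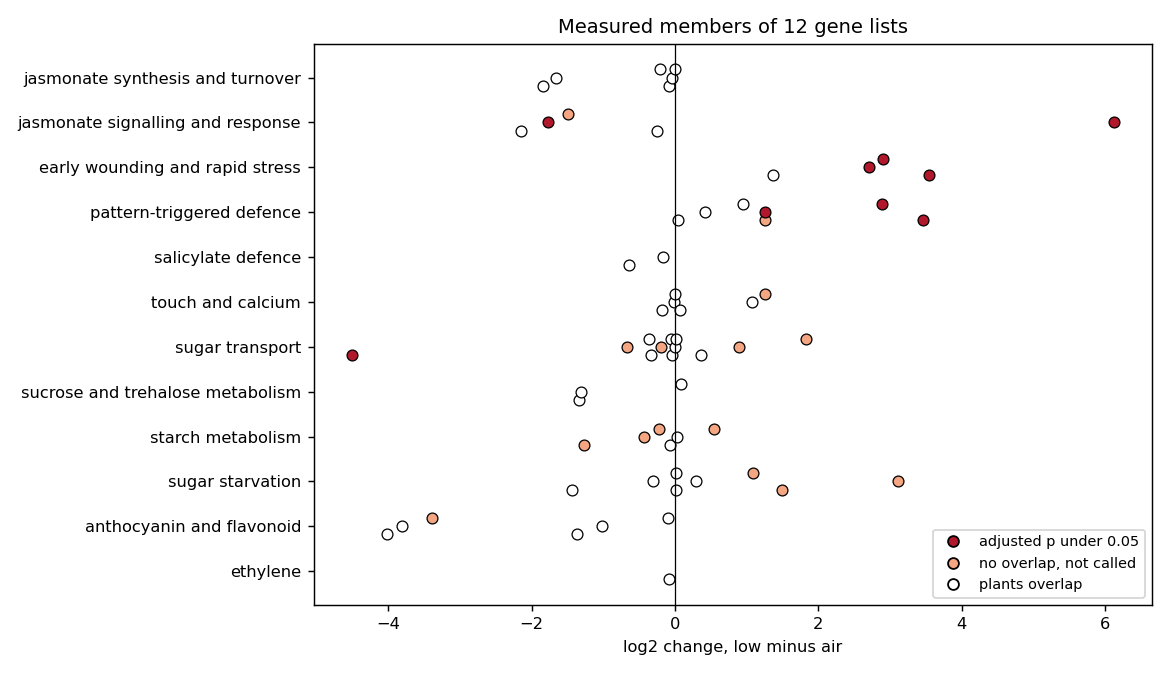
Log2 change between the low and air plants (horizontal axis) of each measured member of 12 gene lists (vertical axis). Dark points passed the adjusted p, pale points had no overlap between plants without passing, and open points overlapped; the 9 dark points lie in the jasmonate signalling, early wounding, pattern-triggered defence and sugar transport lists.

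The choice of control plants moved these genes unequally. Against air plant 1 alone, the changes were 6.67 for ORA47, 3.58 for STZ, 2.41 for PUB22, 2.64 for AR781 and 1.60 for BIK1, and against air plants 2 and 3 they were 5.85, 3.52, 3.12, 2.74 and 1.08. For AT3G15450 the same values were 0.74 and 4.30, for AKINBETA1 0.47 and 2.01, for SWEET2 0.72 and 2.37, for APL3 -0.24 and -1.78, and for MYC4 -0.61 and -1.93. The named sugar genes thus had changes of under 1 in size against air plant 1, except SWEET13 (-2.32). ORA47, STZ, PUB22, AR781 and BIK1 kept changes above 1 against either set. These genes and SWEET13 were called against all 3 air plants, and the other named sugar genes were not. A call favours genes for which air plant 1 lies with the other air plants, so this contrast cannot separate sugar from defence genes. The uncalled wounding gene EXO had -0.68 against air plant 1 alone and 1.37 against all 3. The part of air plant 1 in these results was not tested beyond these values.

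**Figure D5:**
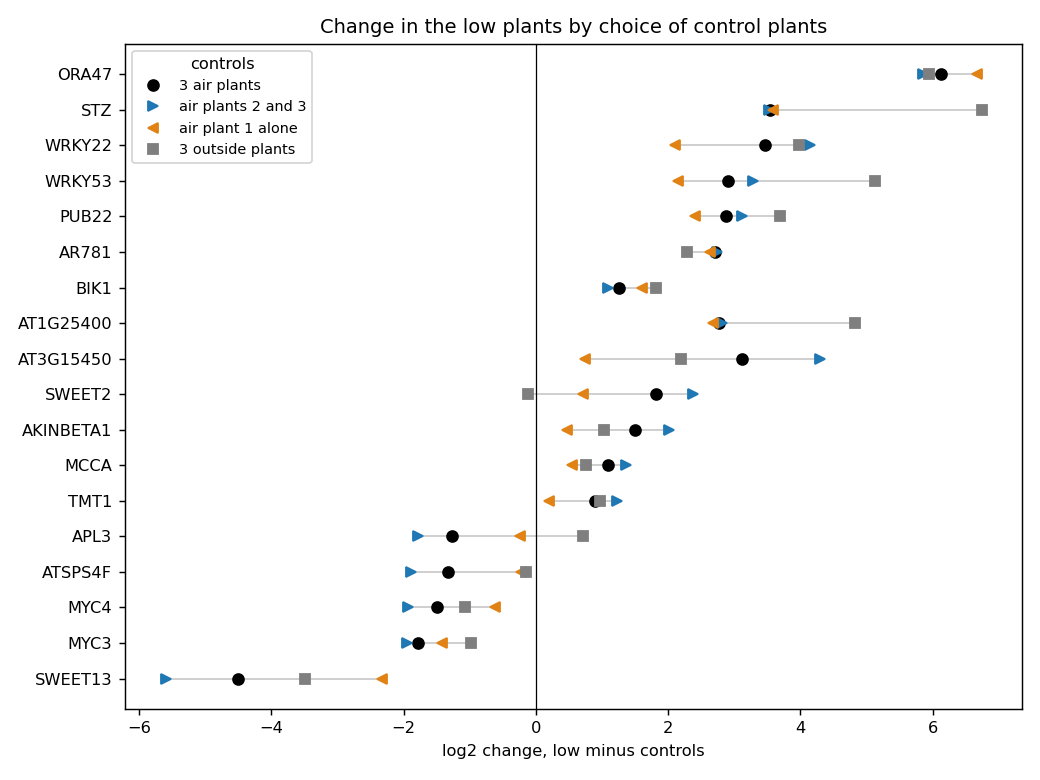
Log2 change of the low plants (horizontal axis) for 18 genes (vertical axis) against 4 sets of controls: the 3 air plants (black circles), air plants 2 and 3 (blue), air plant 1 alone (orange) and the 3 outside plants (grey squares). The symbols lie close together for AR781, at 2.29 to 2.74, and far apart for AT3G15450, at 0.74 to 4.30.

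Among the other ranked falls, the probe sets least dependent on single plants were AT4G00670 and AT1G80290, both known here by locus only. AT4G00670 read 4.93, 5.002 and 5.16 in air and 3.40, 3.48 and 3.55 in low plants (-1.55 ± 0.12 SE, adjusted p = 6.11e-04), but 3.23 to 3.63 outside, so that the air plants were the high group. AT1G80290 had 6.04, 6.13 and 6.18 in air and 4.97, 4.44 and 4.202 in low plants (-1.58, adjusted p = 0.00662), with outside plants at 5.91 to 6.05 and high plants at 6.13 to 6.38. The low plants were thus below all other groups. GIS, a zinc finger factor of leaf hair formation, fell to 5.32 to 5.39 from 6.76, 7.83 and 7.37 (-1.96, adjusted p = 0.0386), a call lost without any plant but air plant 1 (0.0724 to 0.137). The remaining ranked falls were AT5G11930 (-3.15), AT1G80130 (-2.98), AT3G28540 (-2.88), AT4G27300 (-2.30), AT1G67330 (-1.46) and AT2G15042 (-1.44), each lost without low plant 2 (adjusted p = 0.0702 to 0.151) and low plant 3 (0.0602 to 0.138). All but AT4G27300 were lost without air plant 2 (0.0511 to 0.131) and air plant 3 (0.0562 to 0.155) as well, and AT5G11930 also without low plant 1 (0.0700). Of the 12 ranked falls, 8 lay below the outside plants without overlap, and AT5G11930, AT4G27300, PWD (AT4G24450) and AT4G00670 did not. Among all 2417 probe sets below the air plants without overlap, 1079 lay below the outside plants too.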

How the data were processed

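Leaf RNA of 12 plants was measured on 1 array each. Per the submitters' processing notes the authors ran GCRMA, which corrects background from probe sequence, and the deposited intensities are on a log2 scale. No version or option of GCRMA is named in the sources used here. Values were used as deposited, and the lowest, 2.11, held 26.7% to 28.0% of probe sets in the 6 low and air arrays, whose medians ran from 5.70 to 5.80. Arrays have no read depth, so the 3 plants per group limit the precision. The table has 22810 probe sets, of which 64 are controls. The supplied annotation gave 1 gene for 13513 of the others, several for 503 and none for 8730, and the reference table (TAIR10.1, names only) held 13436 of the first kind.

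Groups were compared with limma 3.58.1 in R 4.3.3: 12 arrays with 8 residual degrees of freedom, variances moderated along a trend in mean intensity, two-sided, with Benjamini-Hochberg adjustment over 22746 probe sets and calls at 0.05. Every adjusted p is from limma. In a simulation of this comparison over 22746 probe sets, the test called 57 of 100 set to a log2 change of 1, 90 of 100 set to 2, and 12 unchanged ones. The changed ones were drawn from probe sets of higher mean intensity, with independent noise of equal spread in all groups. The wider spread of the air plants was not simulated, so these rates may not hold for the real comparison. No overlap means that every low plant lies on one side of every air plant. A fold is given as a lower bound where the lower group lies within 0.5 of the lowest value.

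Genes were named by rule: up to 16 higher and 12 lower genes by size among calls with a log2 change of at least 1, called members of 12 lists (66 of 362 genes measured), up to 4 further members of each list without overlap, and genes from earlier results (ORA47, MYC3, STZ, WRKY22, WRKY53, SWEET13, AKINBETA1 and both loci with the symbol PWD). The members and lists were chosen with earlier results of these data known. The guard cell, root and mesophyll marker lists had 2, 1 and 3 measured genes (guard cell: FMA 0.44, AT1G22690 0.99, neither called), and the epidermis, phloem, xylem, inflorescence and senescing leaf lists had 0. A planned promoter motif search was not run, as no sequences were used here. Alternatives were other normalizations, a filter at a mean of 4, variance models, a threshold of 0.01, a replicate block, other controls and each plant left out in turn. Tables were made with Python 3.11.15 and pandas 2.3.3, figures with matplotlib 3.10.9.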

Additional observations from a re-analysis of the deposited data

How the results depend on the processing

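All counts here are probe sets called higher and lower, 172 and 111 in the report. They became 6 and 1 with the 6 arrays alone (3 and 0 of them shared with the report's), 594 and 589 with a mean of at least 4, 488 and 190 with each array centred on its median, 917 and 858 against the outside plants, 43 and 117 with air plant 1 as the lone control (assumed to vary like the other groups, and added after seeing the data), and 43 and 8 at an adjusted p under 0.01. Leaving out 1 plant gave 62 to 1111 higher and 11 to 1139 lower, the top values without air plant 1. Quantile normalization, no mean trend and robust variances kept both counts within 1.5 times. The numbers of plants did not pair them: deviations of same-numbered air and low plants correlated at 0.02, 0.10 and -0.11, and with the replicate block the counts were 59 and 22. Probe sets without overlap, 1995 higher and 2417 lower, became 10137 and 1578 when centred, since centring orders the probe sets at the lowest value by array and moves the median change to 0.07. They ranged from 2240 to 3511 and 2893 to 4327 without 1 plant, and were 4121 and 5023 against air plant 1 alone. Of the 30 named calls, 29 were lost with the 6 arrays alone, 12 with the block and 16 without low plant 2. Directions turned against the outside plants for AT4G00670 (0.0118), APL3 (0.71), DPE1 (-0.42), SWEET2 (-0.12), AT5G61520 (0.79) and SWEET11 (0.87), and for PWD (AT5G26570) when centred (0.0021). The causes were not tested.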

Other observations

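Beyond the lists, several genes with a symbol separated the 6 plants. They were chosen after their values were seen, from 77 such genes with no overlap and a log2 change of at least 1, of which 33 higher and 27 lower ones were not called. TET8, a tetraspanin, a small membrane protein found on secreted vesicles, rose by 1.37 (adjusted p = 0.0259, lost in 5 of the 6 fits that left out a plant), while its relatives TET5 (1.34, adjusted p = 0.088) and TET10 (1.16, 0.134) had no overlap but did not pass. The U-box ligases PUB25 (2.15, adjusted p = 0.132) and PUB26 (1.45, 0.0958), which act on BIK1, also lay above all air plants without passing. UGT73B1, a glucosyltransferase of the flavonoid and detoxification kind, rose by 1.90 (adjusted p = 0.0114) and was called whichever plant was left out. UGT76C2, a cytokinin glucosyltransferase, rose by 1.63 (adjusted p = 0.0314), but the outside plants read 7.82 to 7.90, above the low plants at 7.28 to 7.59, and its call was lost in 4 of the 6 fits. SDP1, a lipase that breaks down stored oil, rose by 0.60 (adjusted p = 0.0359, called in 1 of the 6 fits).

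Among the genes that were lower, the lectin genes JAL23 (-4.10, adjusted p = 0.103), JAL34 (-2.62, 0.133) and EULS3 (-1.57, 0.103) separated the plants without passing. JAL23 and JAL34 were highest in air plant 3, at 10.92 and 10.43, where the other air plants read 6.26 and 7.48, and 6.57 and 8.33. The drought-induced linker histone HIS1-3 (-3.46, adjusted p = 0.0989), the acetyltransferase-like wall gene TBL26 (-3.91, 0.101) and QQS (-2.05, 0.0999), which affects starch content, had air plant 1 nearest to the low plants. ETL1, a chromatin remodeller, fell by 0.55 (adjusted p = 0.00375) and was called in each of the 6 fits, with 8.06, 8.22 and 8.19 in air and 7.71, 7.55 and 7.56 in low plants. The editing factor MEF8S fell by 0.89 (adjusted p = 0.0108), below the air, outside and high plants, and was lost in 1 of the 6 fits.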
